A study of Mus musculus with 18 samples.

Results

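The genes described here are 9 components of epithelial tight junctions: the claudins Cldn3, Cldn4, Cldn7, Cldn18, Cldn12 and Cldn23, occludin (Ocln), junctional adhesion molecule A (F11r) and the scaffold ZO-1 (Tjp1). They form a list of named genes, drawn up with earlier results of these data known and with no threshold on a measured value, and were looked up by Ensembl identifier among the 15544 genes measured. The 9 genes were all found, and all 9 passed the filter on low levels. Cldn5 was left out because it marks endothelial cells.

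RNA was measured in 18 libraries of mouse lung cells captured on magnetic beads by EpCAM, a surface protein of epithelial cells. Replicates 1 to 5 were wild type, replicates 6 to 10 lacked both copies of Falcor (Falcor-/-), and replicates 11 to 14 lacked 1 copy of Foxa2 (Foxa2+/-). Replicates 15 to 18 carry the label Double-Het, Falcor+/-;Foxa2+/-, and are called the labelled double heterozygotes here. Falcor is a gene for a long non-coding RNA beside Foxa2, whose product is a forkhead transcription factor active in lung epithelium. The series description gives an age of 10 to 12 weeks beside the wild-type animals and no treatment. Not given in the sources used here is how each allele was made. The labels do not say whether a library came from 1 animal or a pool, so p-values here measure the spread between libraries.

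Tight junctions seal the space between neighbouring epithelial cells. Claudins and occludin are the membrane proteins of the seal: some claudins tighten it and others form channels selective for ions or water. Junctional adhesion molecules belong to the immunoglobulin superfamily and sit in the same contacts, and ZO-1 binds their tails under the membrane and links them to actin. In the lung these proteins keep fluid out of the airspaces. Claudin-18 is a main claudin of the alveolar epithelium, claudin-3 and claudin-4 are found in alveolar type 2 and airway cells, and claudin-4 is known to rise in injured alveolar epithelium.

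Each value is a log2 level that the authors had normalized so that every library has the same distribution, with a median over all genes of 11.03, so a difference of 1 is a factor of 2 relative to the other genes of a library. The depth of the libraries is unknown, and levels are compared between libraries, not between genes. Differences were tested with limma, a linear model fitted to all 15249 genes above the filter, with Benjamini-Hochberg adjustment over all of them. A gene is said to have risen or fallen below an adjusted p of 0.05. The 3 comparisons with wild type share the same wild-type libraries.

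The targeted genes followed the labels with 1 exception. Foxa2 averaged 12.97, 12.74, 12.39 and 12.36 in wild type, Falcor-/-, Foxa2+/- and the labelled double heterozygotes, with an SD of 0.08, 0.23, 0.05 and 0.19. The Falcor transcript, annotated as 9030622O22Rik, averaged 10.18, 6.20, 11.70 and 11.66 in that order, with an SD of 0.48, 0.68, 0.21 and 0.15. Its level in the labelled double heterozygotes was thus not below that in Foxa2+/- (difference -0.04, adjusted p = 0.954), which is why that group keeps the word labelled. Libraries of 1 genotype correlated at 0.960 to 0.981 (Pearson's r over genes) and libraries of different genotypes at 0.934 to 0.973.

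Epithelial markers were present in every library. Epcam itself lay between 13.75 and 14.48, and the lowest level of any of 12 pan-epithelial markers in any library was 11.81 (Grhl2). The mean of those 12 markers was 13.62 to 13.77 in wild type, 13.74 to 13.97 in Falcor-/-, 13.85 to 13.90 in Foxa2+/- and 13.78 to 14.03 in the labelled double heterozygotes, and 2, 2 and 3 of them rose in the mutant groups in that order. The captured cells also held other cell types. The mean of 24 endothelial markers was 11.77 to 13.29 in wild type, 11.21 to 13.10 in Falcor-/-, 10.60 to 11.09 in Foxa2+/- and 10.03 to 10.67 in the labelled double heterozygotes. Against wild type 2, 21 and 22 of the 24 endothelial markers fell in the mutant groups in that order. The lowest level of any of them in any library was 7.12 (Emcn), on a scale that starts at 1. Of 16 mesenchymal markers 4, 8 and 14 fell, of 13 macrophage markers 6, 0 and 6 fell, of 12 alveolar type 1 markers 0, 8 and 9 fell, and of 12 alveolar type 2 markers 0 rose or fell in any of the 3 comparisons (limma unadjusted p below 0.05 for 2, 1 and 1). Several alveolar type 2 markers, among them Sftpc, Sftpa1 and Sftpb, lay at or near the top of the scale in every library. At that end levels take only a few repeated values, which leaves little room for a rise. Other markers of that list, such as Etv5 and Napsa, lay lower. The absence of calls in the list is therefore not read as a stable share of these cells. In bulk samples fewer cells of a type and less RNA per cell cannot be told apart.

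Libraries also differed in the balance between genes with short and long transcripts. For each library the median deviation of genes with long transcripts (4696 bases and over) was subtracted from that of genes with short ones (2034 bases and under), a deviation being a level minus the gene's mean over all libraries. This measure was -0.31, -0.22, -0.26, -0.12 and 0.06 in wild-type replicates 1 to 5. It was 0.13, -0.19, 0.42, 0.48 and 0.26 in Falcor-/- replicates 6 to 10. It was -0.03, -0.08, -0.19 and -0.13 in Foxa2+/- replicates 11 to 14, and 0.32, 0.38, -0.25 and -0.20 in the labelled double heterozygotes, replicates 15 to 18. Short transcripts were thus relatively high in 4 Falcor-/- libraries and in replicates 15 and 16, while replicates 17 and 18 of the same label lay with the wild type. The longest transcripts of the genes described here are 1259 bases (Cldn3), 1335 (Cldn7), 1816 (Cldn4), 1848 (Cldn23), 2518 (F11r), 3752 (Cldn12), 4052 (Ocln), 4172 (Cldn18) and 7049 (Tjp1).

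The sequences upstream of 3 claudin genes are given because they bear on which genes lie together and on Foxa2, the forkhead factor that loses a copy in 2 of the genotypes. Cldn4 and Cldn3 are neighbours on chromosome 5 and are transcribed away from each other, Cldn4 on the minus and Cldn3 on the plus strand. Each sequence is the 250 bases before a start site, 5′ to 3′ on the gene's own strand, from RefSeq on GRCm38.p6. Capitals mark matches, on either strand, to the GC box GGGCGG or to the forkhead motifs TGTTTAC and TGTTTGC.
Cldn4, chr5:134946935-134947184, minus strand: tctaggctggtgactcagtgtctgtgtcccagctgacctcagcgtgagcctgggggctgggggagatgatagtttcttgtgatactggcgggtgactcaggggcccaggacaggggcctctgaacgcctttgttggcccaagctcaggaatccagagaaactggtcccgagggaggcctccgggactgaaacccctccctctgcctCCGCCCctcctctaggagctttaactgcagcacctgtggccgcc
Cldn3, chr5:134985964-134986213, plus strand: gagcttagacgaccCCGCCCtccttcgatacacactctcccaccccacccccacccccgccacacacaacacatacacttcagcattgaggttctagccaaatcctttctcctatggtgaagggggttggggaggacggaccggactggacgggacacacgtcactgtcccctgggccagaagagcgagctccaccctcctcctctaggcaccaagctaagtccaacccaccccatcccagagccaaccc
Cldn18, first start, chr9:99717268-99717517, minus strand: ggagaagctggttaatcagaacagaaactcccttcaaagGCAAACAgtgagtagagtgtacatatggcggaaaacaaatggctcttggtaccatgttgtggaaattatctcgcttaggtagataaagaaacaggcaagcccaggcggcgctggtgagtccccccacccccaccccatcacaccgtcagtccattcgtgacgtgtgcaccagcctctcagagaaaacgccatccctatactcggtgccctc
Cldn18, second start, chr9:99710064-99710313, minus strand: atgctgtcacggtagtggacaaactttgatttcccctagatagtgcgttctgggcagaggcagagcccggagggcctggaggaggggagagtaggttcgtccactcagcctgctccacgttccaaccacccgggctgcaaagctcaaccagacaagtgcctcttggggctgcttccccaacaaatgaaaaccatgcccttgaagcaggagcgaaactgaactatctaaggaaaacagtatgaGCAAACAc
The capitals are GC boxes in Cldn4 and Cldn3 and forkhead matches in Cldn18. The RefSeq table held 13 start sites for 8 of the 9 genes. Within their 250-base windows TGTTTGC was matched at both starts of Cldn18, from base -211 to -205 at the first and from -8 to -2 at the second, and at no start of the other 7 genes. TGTTTAC was matched at none of the 13. Of 32851 promoter windows of the same length 4.3% held TGTTTGC and 3.17% held TGTTTAC. The GC box was matched in 9 of the 13 windows (69.2%), against 32.7% of all windows, and these belonged to every gene of the 8 but Cldn18. The 13 windows are not independent, as the 2 matched windows of Cldn12 overlap and hold the same GC box. G and C made up 42.0% to 69.2% of the bases in the 13 windows, beside a median of 52.4% over all windows. The part of base composition in the matches was not tested. These are letter matches and show no binding. A gene-level value sums both starts of Cldn18, the upstream of which gives the lung form of the protein.

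Of the 9 genes, Cldn4, Cldn7 and Cldn23 rose and Tjp1 fell in Falcor-/- against wild type. That was 4 of 9 genes, where 9.47% of all tested genes changed, 5.23% upward and 4.24% downward. In the labelled double heterozygotes Cldn4 and Cldn23 rose, 2 of 9 genes, where 14.8% of all genes changed and 7.21% rose. In Foxa2+/- 0 of 9 changed, against 6.11% of all genes, although Cldn18 and Tjp1 had a limma unadjusted p below 0.05 and 3 genes had an exact permutation p below 0.05. The median difference of the 9 genes was 0.19 in Falcor-/-, 0.04 in Foxa2+/- and 0.15 in the labelled double heterozygotes, beside 0.03, 0.04 and 0.07 over all tested genes. Libraries of the 2 groups did not overlap for 1 of the 9 genes in Falcor-/- against wild type (6.53% of all genes), for 2 in Foxa2+/- (11.4%) and for 2 in the labelled double heterozygotes (15.7%). The counts of changed genes turned on single libraries. In Falcor-/- the count was 1 without any one of wild-type replicates 1 or 2 or Falcor-/- replicates 6, 8 or 9, it was 2 without wild-type replicate 3 or 4, and it was 5 without Falcor-/- replicate 7. For the labelled double heterozygotes it was 1 without any one of wild-type replicates 1 or 2 or replicates 15 or 16, and 4 without replicate 18, and in Foxa2+/- it was 1 without wild-type replicate 3.

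**Figure D1:**
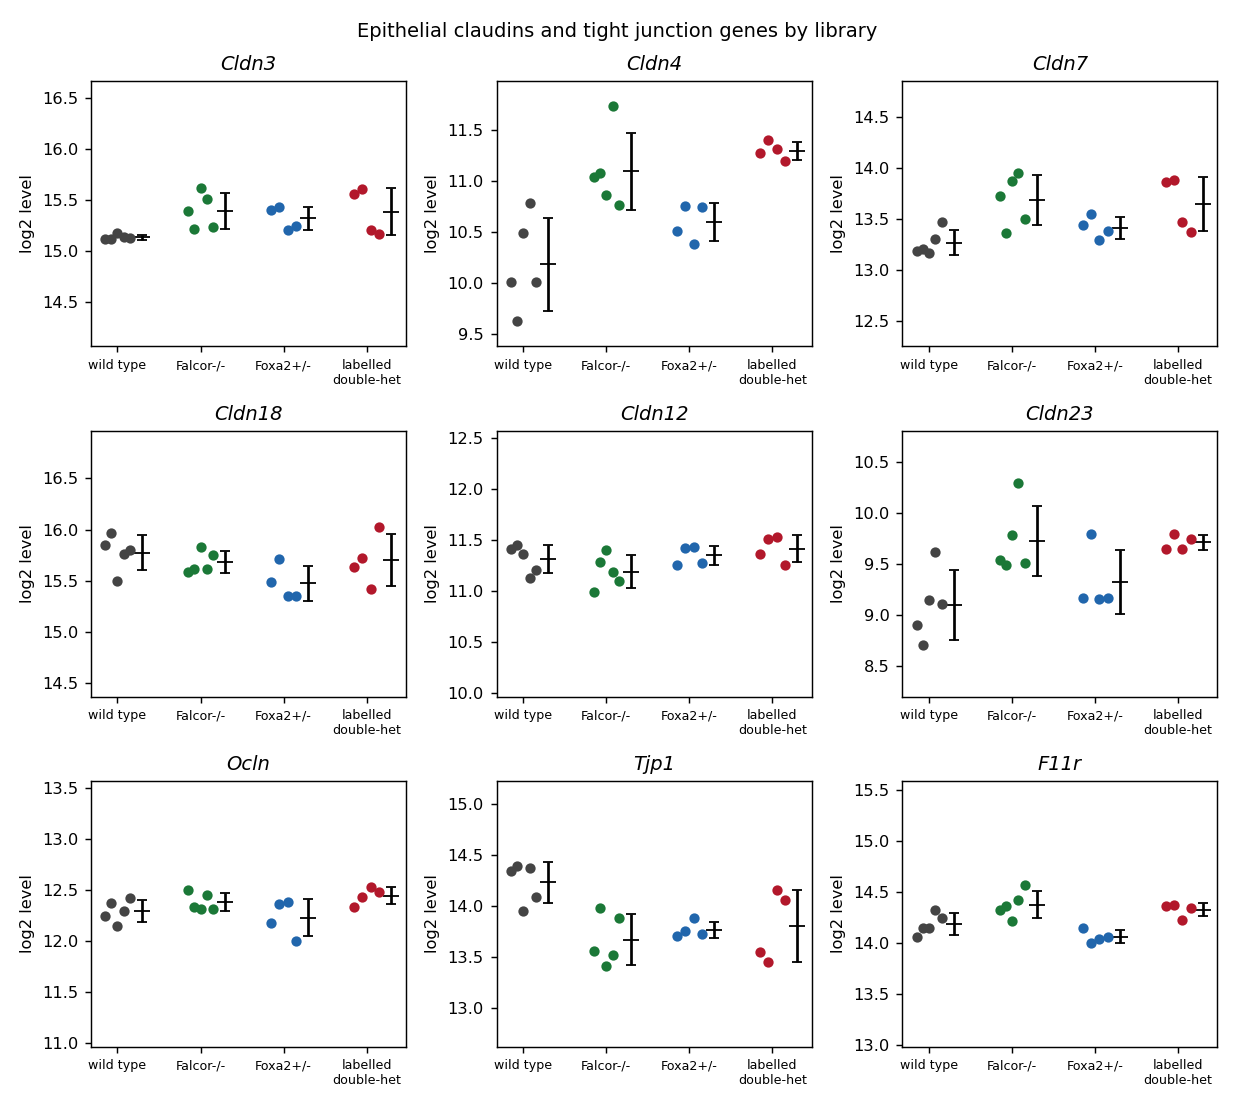
Log2 level of each of the 9 genes (vertical axis, the same span of log2 units in every panel) in each library, by genotype, with dots for libraries and the mean with its SD beside them. Cldn4 in the 4 libraries of the labelled double heterozygotes lies between 11.19 and 11.40, above the 5 wild-type libraries at 9.62 to 10.78, and Tjp1 is at 13.95 to 14.39 in wild type and at 13.41 to 13.98 in Falcor-/-.

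Cldn4 (ENSMUSG00000047501), which with Cldn3 is a receptor for Clostridium perfringens enterotoxin, had the largest differences from wild type among the 9 genes in Falcor-/- and in the labelled double heterozygotes, while in Foxa2+/- that of Tjp1 was larger in size. Its level was 10.00, 9.62, 10.49, 10.78 and 10.00 in wild-type replicates 1 to 5, and 11.04, 11.08, 10.86, 11.73 and 10.76 in Falcor-/- replicates 6 to 10. It was 10.51, 10.75, 10.37 and 10.74 in Foxa2+/- replicates 11 to 14, and 11.27, 11.40, 11.31 and 11.19 in replicates 15 to 18. The libraries of the labelled double heterozygotes were all above every wild-type and Foxa2+/- library, 4 of the 5 Falcor-/- libraries were above every wild-type library, and Foxa2+/- lay within the wild-type range.

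In Falcor-/- Cldn4 was 1.89 times wild type (difference 0.91, SE 0.19, adjusted p = 0.0141, exact permutation p = 0.0159). Among the labelled double heterozygotes it was 2.16 times wild type (difference 1.11, SE 0.21, adjusted p = 0.00162, exact permutation p = 0.0159). In Foxa2+/- the difference of 0.41 (95% confidence interval -0.02 to 0.85) did not pass (adjusted p = 0.287). The rise in Falcor-/- kept an adjusted p between 0.00771 and 0.0427 when each library was left out in turn, and that in the Double-Het label between 0.000565 and 0.00779. Fitted to Falcor-/- and wild type alone, the adjusted p of the rise in Falcor-/- was 0.0561. Genotype accounted for 69.6% of the variance of Cldn4 over the 18 libraries. Of 10 markers of club cells, a secretory cell of the airways, 0 rose in Falcor-/-, where 5 were above wild type. In the labelled double heterozygotes 1 rose and all 10 were above wild type. With genotype means removed, Cldn4 had r = 0.712 with the mean of the club markers and r = -0.725 with that of the alveolar type 2 markers, the strongest among the lists. Both were picked for their size and not tested. Falcor-/- replicate 9 and wild-type replicate 4 each had the highest Cldn4, highest club mean and lowest alveolar type 2 mean of their genotype. The values of r without these libraries were not computed. The part of the cell mix in Cldn4 was not tested.

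Cldn23 (ENSMUSG00000055976), a less studied claudin, rose like Cldn4 in Falcor-/- and in the labelled double heterozygotes. Its level was 8.91, 8.71, 9.15, 9.62 and 9.11 in wild type, 9.54, 9.49, 9.78, 10.30 and 9.51 in Falcor-/-, 9.17, 9.79, 9.16 and 9.17 in Foxa2+/-, and 9.65, 9.80, 9.65 and 9.75 in the labelled double heterozygotes. The last group lay just above the highest wild-type library, whereas Falcor-/- overlapped wild type through wild-type replicate 4. Cldn23 was 1.54 times wild type in Falcor-/- (difference 0.63, SE 0.18, adjusted p = 0.0427, exact permutation p = 0.0317) and 1.53 times in the labelled double heterozygotes (difference 0.61, SE 0.19, adjusted p = 0.0413, exact permutation p = 0.0159). The difference in Foxa2+/- was 0.22 (95% confidence interval -0.18 to 0.63, adjusted p = 0.600), and replicate 12 was the one library of that genotype above 9.17.

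Both rises of Cldn23 stood close to the threshold. Its adjusted p in Falcor-/- was 0.0534 to 0.105 without any one of wild-type replicates 1, 2, 3 or 5 or Falcor-/- replicates 6, 8 or 9, and 0.0848 with those 2 genotypes fitted alone. For the labelled double heterozygotes it was 0.0566 to 0.107 without any one of wild-type replicates 1, 2, 3 or 5 or replicates 15 to 18. Relative to the 12 pan-epithelial markers of each library, the differences of Cldn23 were 0.46 (adjusted p = 0.0629) and 0.37 (adjusted p = 0.135), and those of Cldn4 were 0.75 (adjusted p = 0.0226) and 0.87 (adjusted p = 0.00525). With the length trend of each library removed, an alternative added after the data had been seen, Cldn4 was 0.74 higher in Falcor-/- (adjusted p = 0.0323) and 0.97 higher in the Double-Het label (adjusted p = 0.00355). The differences of Cldn23 were then 0.46 (adjusted p = 0.102) and 0.48 (adjusted p = 0.0789).

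Cldn7 (ENSMUSG00000018569), a claudin of the lateral membrane in airway and other epithelia, rose in Falcor-/-. Its level was 13.19, 13.21, 13.17, 13.31 and 13.46 in wild type, 13.72, 13.36, 13.87, 13.95 and 13.50 in Falcor-/-, 13.44, 13.54, 13.29 and 13.38 in Foxa2+/-, and 13.86, 13.88, 13.46 and 13.37 in the labelled double heterozygotes. In Falcor-/- it was 1.33 times wild type (difference 0.41, SE 0.12, adjusted p = 0.0400, exact permutation p = 0.0159). Among the labelled double heterozygotes it was 1.3 times wild type, which did not pass (difference 0.38, SE 0.13, adjusted p = 0.0519, exact permutation p = 0.0238), with replicates 15 and 16 above every wild-type library and replicates 17 and 18 within the wild-type range or at its edge. The labelled double heterozygotes differed from Falcor-/- by -0.04 (95% confidence interval -0.30 to 0.23, adjusted p = 0.893). Foxa2+/- differed from wild type by 0.15 (95% confidence interval -0.12 to 0.41).

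Cldn3 (ENSMUSG00000070473), which seals the paracellular space, varied little in wild type and more in each mutant group. Its level was 15.11, 15.11, 15.17, 15.14 and 15.12 in wild type, 15.39, 15.21, 15.62, 15.50 and 15.23 in Falcor-/-, 15.40, 15.43, 15.20 and 15.24 in Foxa2+/-, and 15.56, 15.60, 15.20 and 15.16 in the labelled double heterozygotes. All Falcor-/- and Foxa2+/- libraries were above all wild-type libraries, and the exact permutation p was 0.00794 for both, the smallest possible, and 0.0159 for the labelled double heterozygotes. With limma, which shares the spread over all 4 genotypes, no difference passed: 0.26 (SE 0.09, adjusted p = 0.0786), 0.19 (SE 0.10, adjusted p = 0.328) and 0.25 (SE 0.10, adjusted p = 0.105). An annotated antisense gene, Wbscr25, overlaps Cldn3, and without a known strand setting its reads cannot be told apart from those of Cldn3. Wbscr25 differed from wild type by 0.77 (adjusted p = 0.0563), 0.70 (adjusted p = 0.144) and 0.48 (adjusted p = 0.24).

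The levels of Cldn3 and Cldn7 moved with the balance of short and long transcripts. The 5 highest levels of Cldn7 and the 4 highest of Cldn3 were all in the 6 libraries with the largest values of the length measure, Falcor-/- replicates 6, 8, 9 and 10 and replicates 15 and 16. With the length trend removed from each library the difference of Cldn3 was 0.02 in Falcor-/- (adjusted p = 0.795), 0.13 in Foxa2+/- (adjusted p = 0.196) and 0.08 in the labelled double heterozygotes (adjusted p = 0.402). That of Cldn7 was 0.19 in Falcor-/- (adjusted p = 0.0715) and 0.21 in the labelled double heterozygotes (adjusted p = 0.0396). The rise of Cldn7 in Falcor-/- thus did not pass once the trend was removed.

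Single libraries decided the calls of both genes. In Falcor-/- the adjusted p of Cldn7 was 0.0625 to 0.102 without any one of wild-type replicates 1 to 4 or Falcor-/- replicates 6, 8 or 9, and 0.0643 with those 2 genotypes fitted alone. Cldn7 passed in the labelled double heterozygotes without wild-type replicate 5 (adjusted p = 0.0445), replicate 17 (adjusted p = 0.0432) or replicate 18 (adjusted p = 0.0221). Cldn3 passed in Falcor-/- without replicate 7 (adjusted p = 0.0342) and in the labelled double heterozygotes without replicate 18 (adjusted p = 0.0429). With libraries weighted by their quality both genes passed in the labelled double heterozygotes against wild type, Cldn3 with a difference of 0.35 (adjusted p = 0.00689) and Cldn7 with 0.51 (adjusted p = 0.00225), and Cldn7 also against Foxa2+/- (difference 0.33, adjusted p = 0.0473). The weights were 1.89 and 1.17 for replicates 15 and 16, high in the length measure, and 0.52 and 0.51 for replicates 17 and 18. With weights 4939 of all genes changed against wild type, beside 2254 without, and 2125 against Foxa2+/-, beside 370. Relative to the pan-epithelial markers Cldn3 differed from wild type by 0.10, -0.01 and 0.01 in Falcor-/-, Foxa2+/- and the labelled double heterozygotes, and Cldn7 by 0.25 (adjusted p = 0.0473), -0.05 and 0.14. On that scale Cldn7 was also higher in Falcor-/- than in Foxa2+/- (difference 0.30, adjusted p = 0.0289), where 76.8% of the changed genes were higher, beside 51.4% as deposited.

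**Figure D2:**
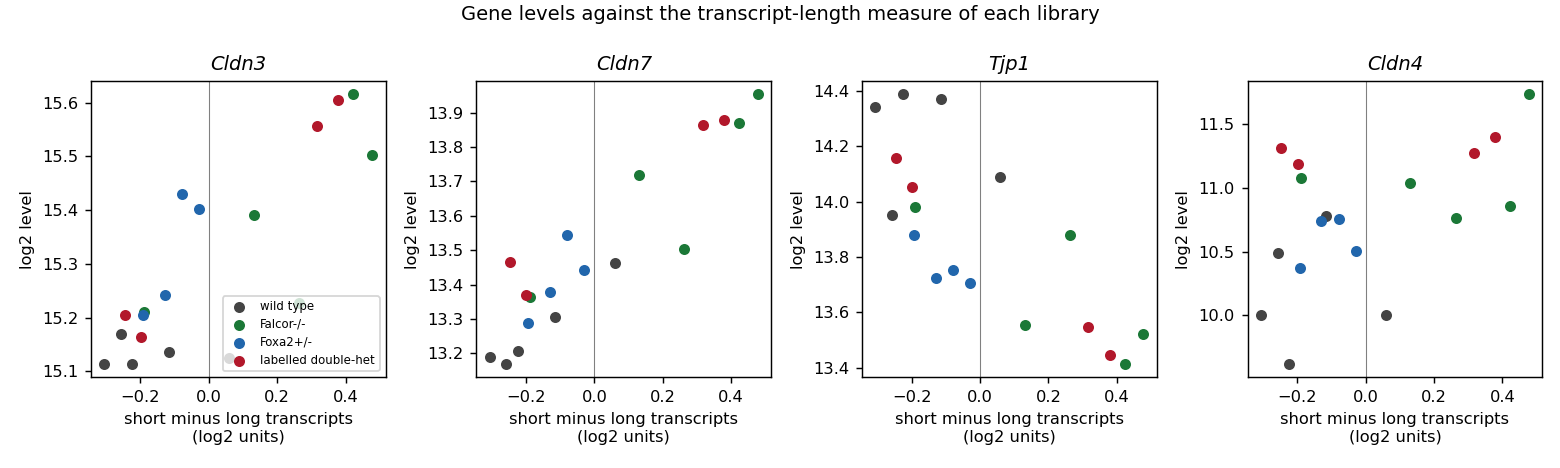
Log2 level of Cldn3, Cldn7, Tjp1 and Cldn4 (vertical axes) against the length measure of each library (horizontal axes, short minus long transcripts in log2 units), 1 dot per library coloured by genotype. Replicates 15 and 16, at 0.32 and 0.38, have the higher Cldn3 and Cldn7 and the lower Tjp1 of their label, and replicates 17 and 18, at -0.25 and -0.20, lie near the wild type, while Cldn4 is at 11.19 to 11.40 in all 4.

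Cldn18 (ENSMUSG00000032473), the alveolar claudin with the forkhead matches shown above, did not pass in any comparison. Its level was 15.85, 15.97, 15.49, 15.76 and 15.80 in wild type, 15.58, 15.61, 15.83, 15.62 and 15.75 in Falcor-/-, 15.48, 15.71, 15.35 and 15.35 in Foxa2+/-, and 15.64, 15.73, 15.42 and 16.03 in the labelled double heterozygotes. The lowest mean was that of Foxa2+/-, 81.1% of wild type (difference -0.30, SE 0.12, adjusted p = 0.148, exact permutation p = 0.0476), with all 4 libraries below the wild-type mean and replicate 12 within the wild-type range. The labelled double heterozygotes differed from wild type by -0.07 (95% confidence interval -0.32 to 0.17), and by -0.18 without replicate 18. They differed from Foxa2+/- by 0.23, which did not pass. Alveolar type 1 markers fell in both groups, 8 and 9 of 12, and their part in the level of Cldn18 was not tested. Relative to the pan-epithelial markers the difference in Foxa2+/- was -0.50 (adjusted p = 0.0176). That scale moved the median of all genes by -0.19, and 4.21% of the changed genes were higher on it, beside 32.1% as deposited. With library weights the difference was -0.32 (adjusted p = 0.0363), where 1947 of all genes changed, beside 932.

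Cldn12 (ENSMUSG00000046798), a claudin whose tail lacks the usual motif for binding ZO-1, differed little between genotypes. Wild type was at 11.31 ± 0.14 (SD, n = 5), Falcor-/- at 11.19 ± 0.16 (SD, n = 5), Foxa2+/- at 11.35 ± 0.09 (SD, n = 4) and the labelled double heterozygotes at 11.41 ± 0.13 (SD, n = 4), and all 4 groups overlapped. The 95% confidence intervals of its differences from wild type were -0.31 to 0.06, -0.16 to 0.23 and -0.10 to 0.30, which exclude a change by a factor of 2. Relative to the pan-epithelial markers its difference in Falcor-/- was -0.28 (adjusted p = 0.0441), and those in Foxa2+/- and the labelled double heterozygotes, above 0 as deposited, were -0.16 and -0.14.

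Among the other membrane proteins, occludin (Ocln, ENSMUSG00000021638), a tetraspan protein of the junction strands, did not pass in any comparison. Its genotype means were 12.30 ± 0.11 (SD, n = 5), 12.38 ± 0.09 (SD, n = 5), 12.23 ± 0.18 (SD, n = 4) and 12.45 ± 0.08 (SD, n = 4) in wild type, Falcor-/-, Foxa2+/- and the labelled double heterozygotes. Its libraries ranged from 12.00 to 12.53. The 95% confidence intervals against wild type were -0.07 to 0.24, -0.24 to 0.10 and -0.02 to 0.32, so none of them spans a rise or fall of a factor of 2. Relative to the pan-epithelial markers its differences were -0.077, -0.26 and -0.092, also without a call.

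F11r (ENSMUSG00000038235), which encodes junctional adhesion molecule A, separated Foxa2+/- from the other mutant groups. Its level was 14.05, 14.15, 14.14, 14.33 and 14.24 in wild type, 14.32, 14.36, 14.21, 14.42 and 14.57 in Falcor-/-, 14.15, 14.00, 14.04 and 14.05 in Foxa2+/-, and 14.36, 14.37, 14.23 and 14.34 in the labelled double heterozygotes. Every Falcor-/- library and every library of the labelled double heterozygotes was above every Foxa2+/- library, and wild type lay between them and overlapped all 3. F11r was 1.24 times as high in Falcor-/- as in Foxa2+/- (difference 0.31, SE 0.07, adjusted p = 0.0107, exact permutation p = 0.0159), and this kept an adjusted p between 0.00629 and 0.0382 when each library was left out in turn. Cell type markers differed there as well: 18 of 24 endothelial, 8 of 12 ciliated cell and 5 of 12 alveolar type 1 markers were higher and 0 lower. Of 13 macrophage markers 6 were lower and 0 higher. The part of the cell mix in F11r was not tested. The labelled double heterozygotes were at 1.20 times Foxa2+/- (difference 0.26, SE 0.07), which did not pass (adjusted p = 0.0702, exact permutation p = 0.0286, the smallest possible). Against wild type the differences were 0.19 (adjusted p = 0.0663), -0.12 (adjusted p = 0.376) and 0.14 (adjusted p = 0.185), and relative to the pan-epithelial markers that of the labelled double heterozygotes was -0.10, while that of Foxa2+/- was -0.32 (adjusted p = 0.0284). On that scale 4.21% of the genes changed in Foxa2+/- were higher, beside 32.1% as deposited. With library weights F11r passed in Falcor-/- against wild type (difference 0.24, adjusted p = 0.0223) and in the labelled double heterozygotes against Foxa2+/- (difference 0.29, adjusted p = 0.0137). Of all genes 3446 and 2125 changed in these comparisons with weights, beside 1444 and 370.

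Tjp1 (ENSMUSG00000030516), the scaffold ZO-1, was the one gene of the 9 that fell, and it was below wild type in all 3 mutant groups. Its level was 14.34, 14.39, 13.95, 14.37 and 14.09 in wild type, 13.55, 13.98, 13.41, 13.52 and 13.88 in Falcor-/-, 13.71, 13.75, 13.88 and 13.72 in Foxa2+/-, and 13.55, 13.45, 14.16 and 14.05 in the labelled double heterozygotes. Foxa2+/- lay wholly below wild type, 4 of 5 Falcor-/- libraries did, and the labelled double heterozygotes were split, replicates 15 and 16 below and replicates 17 and 18 within the wild-type range. Tjp1 was 67.9% of wild type in Falcor-/- (difference -0.56, SE 0.14, adjusted p = 0.0275, exact permutation p = 0.0159). It was 72.6% in Foxa2+/- (difference -0.46, SE 0.15, adjusted p = 0.0807, exact permutation p = 0.0159) and 74.4% in the labelled double heterozygotes (difference -0.43, SE 0.15, adjusted p = 0.0637, exact permutation p = 0.0635), neither of which passed. The mutant groups differed from each other by -0.10 (Falcor-/- minus Foxa2+/-, 95% confidence interval -0.41 to 0.22), 0.04 (labelled double heterozygotes minus Foxa2+/-, -0.30 to 0.37) and 0.13 (labelled double heterozygotes minus Falcor-/-, -0.18 to 0.45).

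The call of Tjp1 turned on single libraries. In Falcor-/- the adjusted p was 0.0530 to 0.0722 without any one of wild-type replicates 1, 2 or 4 or Falcor-/- replicates 6, 8 or 9. In Foxa2+/- Tjp1 passed without wild-type replicate 3 (adjusted p = 0.0438) or with those 2 genotypes fitted alone (adjusted p = 0.0187). In the labelled double heterozygotes it passed without wild-type replicate 3 (adjusted p = 0.0400), replicate 17 (adjusted p = 0.0255) or replicate 18 (adjusted p = 0.0389). With library weights Tjp1 passed in both, with differences of -0.51 (adjusted p = 0.00694) and -0.61 (adjusted p = 0.00220). Of all genes 1947 and 4939 changed with weights, beside 932 and 2254.

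Tjp1 has the longest transcript of the 9 genes, and its 5 lowest levels were all in the 6 libraries with the largest length measure. With the length trend removed from each library Tjp1 was lower by 0.38 in Falcor-/- (difference -0.38, adjusted p = 0.0438), by 0.47 in Foxa2+/- (difference -0.47, adjusted p = 0.0148) and by 0.35 in the labelled double heterozygotes (difference -0.35, adjusted p = 0.0380). Relative to the pan-epithelial markers the differences were -0.72 (adjusted p = 0.0213), -0.66 (adjusted p = 0.0268) and -0.67 (adjusted p = 0.0164). On that scale 11.6%, 4.21% and 7.34% of all changed genes were higher, so most calls on it were downward. ZO-1 is also a junction protein of endothelial cells, whose 24 markers were at a mean of 12.78 in wild type and 11.98, 10.79 and 10.34 in the mutant groups. The part of endothelial RNA in the fall of Tjp1 was not tested.

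**Figure D3:**
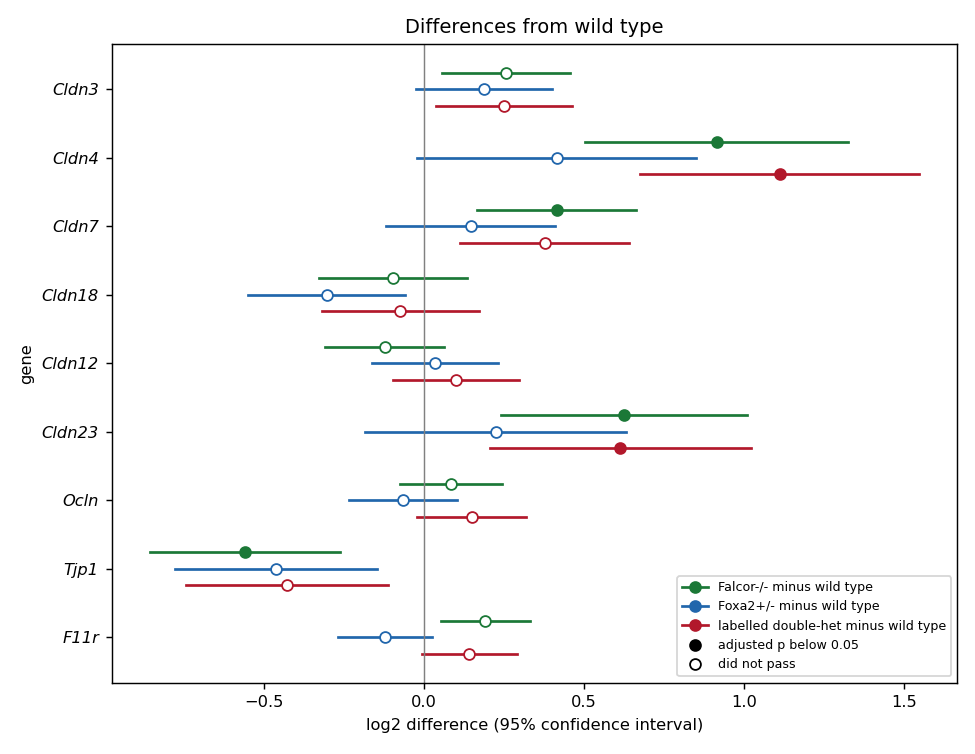
Differences from wild type (horizontal axis, log2 units, with 95% confidence intervals) of the 9 genes in the 3 mutant groups. Filled dots mark an adjusted p below 0.05: Cldn4 at 0.91 and 1.11, Cldn23 at 0.63 and 0.61, Cldn7 at 0.41 and Tjp1 at -0.56, with no filled dot for Foxa2+/-.

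Between mutant groups 1 of the 9 genes differed in 1 of the 3 comparisons. Falcor-/- against Foxa2+/- had 1 of 9, F11r, which was higher, where 16.7% of all genes changed and 8.56% were higher. The labelled double heterozygotes against Foxa2+/- had 0 of 9, where 2.43% of all genes changed, with 3 limma unadjusted p below 0.05 and 2 exact permutation p below 0.05. Against Falcor-/- the labelled double heterozygotes also had 0 of 9, where 5.15% of all genes changed, with 1 limma unadjusted p and 0 exact permutation p below 0.05. Cldn4 was 1.62 times as high in the labelled double heterozygotes as in Foxa2+/- (difference 0.70, SE 0.22, adjusted p = 0.1, exact permutation p = 0.0286). It passed in that comparison with those 2 genotypes fitted alone (adjusted p = 0.0161) and with library weights (adjusted p = 0.0409). With weights 2125 of all genes changed there, beside 370. Falcor-/- was 1.41 times Foxa2+/- (difference 0.50, SE 0.21, adjusted p = 0.0942). For both pairs Cldn4 and F11r were the 2 genes whose libraries did not overlap, where 12.3% and 11.9% of all genes did not. Cldn4 in the labelled double heterozygotes and Falcor-/- differed by 0.20 (95% confidence interval -0.24 to 0.63).

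By level, Cldn4 and F11r thus order the groups differently. For Cldn4 the order was wild type (10.18 ± 0.45, SD, n = 5), Foxa2+/- (10.59 ± 0.18, SD, n = 4), Falcor-/- (11.09 ± 0.38, SD, n = 5) and the labelled double heterozygotes (11.29 ± 0.09, SD, n = 4), and no pair of neighbours passed. For F11r it was Foxa2+/- (14.06 ± 0.06, SD, n = 4), wild type (14.18 ± 0.11, SD, n = 5), the labelled double heterozygotes (14.32 ± 0.07, SD, n = 4) and Falcor-/- (14.37 ± 0.13, SD, n = 5), and again no pair of neighbours passed. Of the 54 exact permutation tests of the 9 genes in 6 comparisons, 0 passed after Benjamini-Hochberg adjustment over the 54, with a lowest adjusted value of 0.0859, 18 at an unadjusted exact p below 0.05, and groups whose sizes set a floor of 0.00794 or 0.0286.

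**Figure D4:**
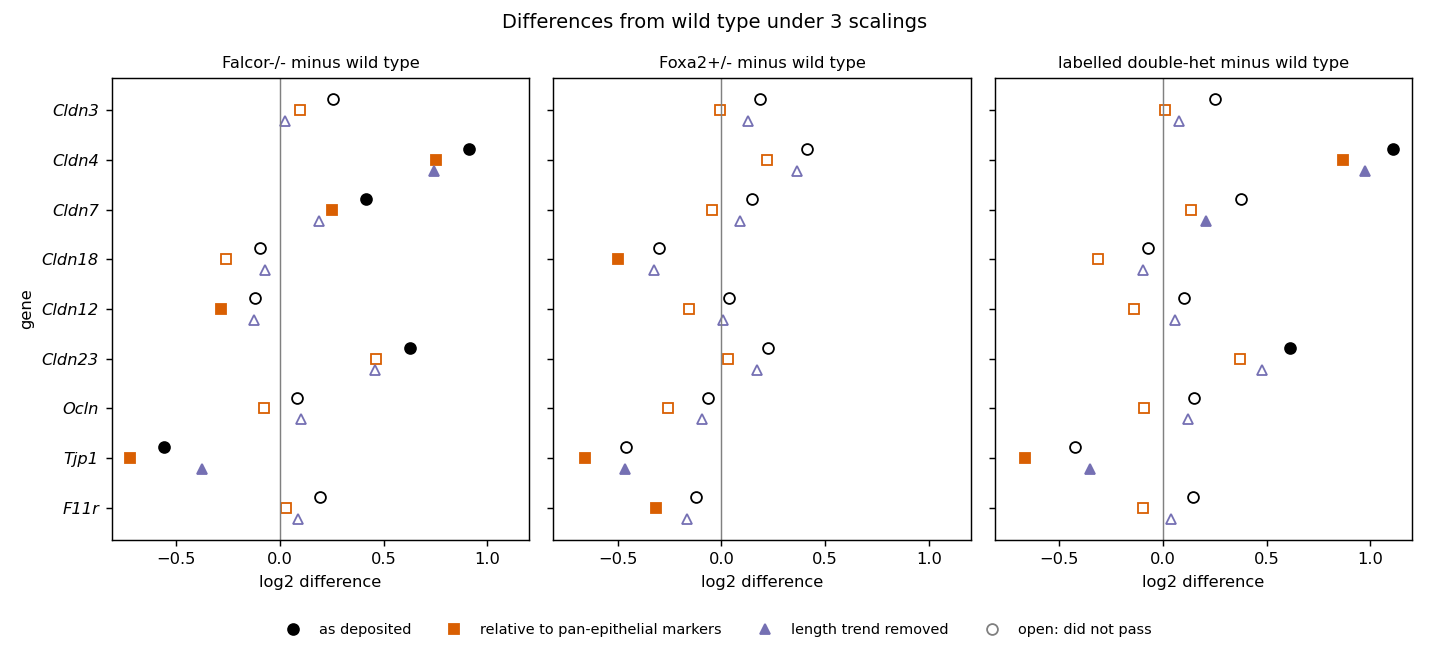
Differences from wild type of the 9 genes (horizontal axes, log2 units) as deposited, relative to the pan-epithelial markers of each library, and with the length trend of each library removed; filled symbols have an adjusted p below 0.05. Cldn4 in Falcor-/- and the labelled double heterozygotes is filled under all 3 scalings (0.74 to 1.11), and Tjp1 is below 0 in all panels (-0.72 to -0.35).

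Between libraries of a genotype few pairs of the 9 genes varied together. With the genotype means removed, 3 of the 36 pairs had a permutation p of Pearson's r below 0.05 after Benjamini-Hochberg adjustment over the 36. Cldn3 and Cldn7 rose and fell together (r = 0.888, adjusted permutation p = 0.0186, and Spearman's rho = 0.876, adjusted permutation p = 0.0279, 18 libraries), and r was 0.872 without the 2 libraries farthest from the median of Cldn3. Cldn3 and Tjp1 were opposed (r = -0.862, adjusted permutation p = 0.00684, and rho = -0.850, adjusted permutation p = 0.0259), with r = -0.810 without those 2 libraries. Both pairs join genes whose levels moved with the length measure, and the part of that measure in them was not tested.

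The pair of Cldn4 and Cldn23 had r = 0.814 (adjusted permutation p = 0.0186) and rho = 0.645, which did not pass (adjusted permutation p = 0.116), and r fell to 0.586 without the 2 libraries farthest from the median of Cldn4. The neighbours Cldn3 and Cldn4 had r = 0.240 (adjusted permutation p = 0.842). The nearest 3 tested genes on each side of this pair are, in order, Limk1, Eln and Mettl27 on the side of Cldn4 and Wbscr25, Abhd11 and Abhd11os on the side of Cldn3. Mettl27 rose by 0.59 in Falcor-/- (adjusted p = 0.0315) and by 0.71 in the labelled double heterozygotes (adjusted p = 0.00876), and Abhd11 by 0.68 (adjusted p = 0.00457) and 0.60 (adjusted p = 0.00324). The elastin gene Eln went the other way in the same groups, with differences of -1.69 (adjusted p = 0.0107) and -2.40 (adjusted p = 0.000216). Eln also fell in Foxa2+/- (difference -1.63, adjusted p = 0.00854). Limk1, Wbscr25 and Abhd11os passed in neither Falcor-/- nor the labelled double heterozygotes, where 9.47% and 14.8% of all tested genes changed. All 6 were named after their values had been seen.

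Over all 18 libraries, genotype differences included, the tested genes with a name whose levels were most like those of Cldn4 were Cldn23 (Pearson's r = 0.903), Stamos (0.897) and Slc23a1 (0.890). Those most like Cldn23 were Acsf3 (0.909), Cldn4 (0.903) and Zfp688 (0.880). For Cldn3 they were Timm17b (0.940), Dld (0.927) and Zfp428 (0.925), and for Cldn7 Mdh1 (0.967), Rpl36al (0.965) and Slc25a11 (0.965). For Tjp1 they were Ctnnd1 (0.951), which encodes the cadherin-binding protein p120-catenin, Ptpn14 (0.940) and Ndst1 (0.940). The highest correlations of Cldn12 (Gucy2g, 0.888), F11r (Evi2a, 0.874), Cldn18 (Sept2, 0.777) and Ocln (Arvcf, 0.739) were lower. These are descriptions over libraries that share genotypes and a normalization.

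The wider tight junction was described by 4 lists. Of 20 other claudins listed, 8 were measured and tested. Of other membrane proteins 10 of 11 were tested, of scaffold and polarity proteins 21 of 24, and of regulators 15 of 15. These lists were drawn up with earlier results of the same data known. Their counts stand beside 9.47%, 6.11% and 14.8% of all tested genes changed in Falcor-/-, Foxa2+/- and the labelled double heterozygotes against wild type.

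Among the other claudins, Cldn1, Cldn8 and Cldn6 passed upward in Falcor-/- (3 of 8, none fell), Cldn6 with the limit given below. Cldn1, which seals epithelia, was 12.02 to 12.47 in wild type and 12.70 to 13.24 in Falcor-/-, so these groups did not overlap (difference 0.70, SE 0.13, adjusted p = 0.00637). Cldn8, another sealing claudin, rose by 0.62 in Falcor-/- (adjusted p = 0.0452) and by 0.66 in the labelled double heterozygotes (adjusted p = 0.0297). Cldn6, a claudin of embryonic epithelia, lay near the filter of 6. It was at 5.38, 4.95, 6.20, 6.28 and 5.25 in wild type and 6.60, 6.10, 6.75, 7.18 and 6.30 in Falcor-/-. Without the Falcor-/- libraries its mean would be below the filter, so it was tested only through the group where it was high. Its difference of 0.97 (adjusted p = 0.0437) is therefore not read as a rise.

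Cldn2, which forms pores for cations and water, moved in the groups with a Foxa2 copy removed. It was 7.41, 6.60, 6.28, 6.90 and 7.07 in wild type and 7.19, 7.48, 6.67, 7.48 and 6.70 in Falcor-/-. It was 8.17, 8.68, 8.31 and 9.62 in Foxa2+/- and 8.30, 8.21, 8.19 and 8.17 in the labelled double heterozygotes. All 8 libraries of these groups were thus above all 10 of the others. Against wild type alone, libraries did not overlap for 11.4% of all genes in Foxa2+/- and 15.7% in the labelled double heterozygotes. The share of all genes split 8 against 10 was not counted. Cldn2 rose by 1.84 in Foxa2+/- (SE 0.29, adjusted p = 0.000887) and by 1.37 in the labelled double heterozygotes (SE 0.29, adjusted p = 0.00400). Its difference in Falcor-/- was 0.25 (adjusted p = 0.522), and Falcor-/- was below Foxa2+/- by a difference of -1.59 (adjusted p = 0.00408). In Foxa2+/- it was the one other claudin of 8 to change, and in the labelled double heterozygotes it was 1 of 2. Cell type markers fell in these 2 groups as well: 21 and 22 of 24 endothelial and 8 and 9 of 12 alveolar type 1 markers. In Falcor-/- 2 and 0 of them fell. The part of the cell mix in Cldn2 was not tested.

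Of the 10 other membrane proteins 1 fell in Falcor-/-, 1 in Foxa2+/- and 3 in the labelled double heterozygotes, and 0 rose. Jam2, an adhesion molecule known from endothelial junctions, fell in all 3: by 0.67 (adjusted p = 0.0315), 1.23 (adjusted p = 0.000858) and 0.85 (adjusted p = 0.00610). Jam3, also found in endothelium, fell by 0.76 (adjusted p = 0.0200) and Ildr2, an angulin of contacts between 3 cells, by 1.20 (adjusted p = 0.0409), both in the labelled double heterozygotes. The mean of the endothelial markers given above was below that of wild type in all 3 mutant groups, as was Jam2, and its part in Jam2 was not tested. Jam3 averaged 7.80 in wild type, 7.84 in Falcor-/- and 7.71 in Foxa2+/-, and 7.04 in the labelled double heterozygotes.

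Among the 21 scaffold and polarity genes, 0 rose and 2 fell in Falcor-/-, 0 rose and 2 fell in Foxa2+/-, and 2 rose and 4 fell in the labelled double heterozygotes. In Falcor-/- 18 of the 21 were below wild type, beside 7020 of all 15249 genes, and their median longest transcript was 5815 bases, beside 3238 over all genes. Those that fell in Falcor-/- were Amotl1, an angiomotin-like protein (by 0.79, adjusted p = 0.0234), and Mpdz, the multi-PDZ protein MUPP1 (by 0.75, adjusted p = 0.0438). In Foxa2+/- the polarity protein gene Pard6g fell by 1.17 (adjusted p = 0.0118) and Magi3 by 0.54 (adjusted p = 0.0133). In the labelled double heterozygotes Magi2, like Magi3 a membrane-associated scaffold, rose by 0.68 (adjusted p = 0.00116), while Pard6g fell by 1.24 (adjusted p = 0.00450), Amotl2 by 0.44 (adjusted p = 0.00501) and Amotl1 by 0.87 (adjusted p = 0.00775).

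Of the 15 regulators of the junction 2 changed in Falcor-/-, 0 in Foxa2+/- and 2 in the labelled double heterozygotes. In Falcor-/- Micall2, which acts in the return of occludin to the membrane, rose by 0.51 (adjusted p = 0.0405) and Arhgef18, an activator of RhoA at junctions, fell by 0.31 (adjusted p = 0.0315). In Foxa2+/- 4 of the 15 had a limma unadjusted p below 0.05. In the labelled double heterozygotes the kinase gene Wnk4 rose by 0.45 (adjusted p = 0.0267) and Sympk, whose protein symplekin also acts in polyadenylation, fell by 0.18 (adjusted p = 0.0317).

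Between mutant groups, Falcor-/- was above Foxa2+/- in Cldn1 (difference 0.54, adjusted p = 0.0154), and below it in the membrane proteins Marveld3 (difference -0.33, adjusted p = 0.0142) and Ildr2 (difference -1.54, adjusted p = 0.0153), the polarity gene Pard3 (difference -0.42, adjusted p = 0.0241), Tjap1 (difference -0.18, adjusted p = 0.0353) and Ash1l (difference -0.52, adjusted p = 0.0465). In all, 3 of 8 other claudins, 3 of 10 membrane proteins, 3 of 21 scaffolds and 1 of 15 regulators differed there, beside 16.7% of all tested genes. Of these, 2, 1, 1 and 0 were higher in Falcor-/- and 1, 2, 2 and 1 were lower, in that order of lists. The labelled double heterozygotes were below Foxa2+/- in Ildr2 (difference -1.85, adjusted p = 0.0240) and above it in the kinase gene Prkcz (difference 0.34, adjusted p = 0.0498). These were the only 2 of the 54 genes of the 4 lists to pass, where 2.43% of all tested genes changed. Against Falcor-/- the labelled double heterozygotes were higher in Cldn2 (difference 1.12, adjusted p = 0.0301), Lin7c (difference 0.23, adjusted p = 0.0194) and Magi2 (difference 0.50, adjusted p = 0.0234) and lower in Jam3 (difference -0.80, adjusted p = 0.0304), with 0 of 15 regulators changed (0 at a limma unadjusted p below 0.05). That was 1 of 8 other claudins, 1 of 10 membrane proteins and 2 of 21 scaffolds, where 5.15% of all tested genes changed.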

How the data were processed

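The authors deposited 1 log2 level per gene and library for 15544 Ensembl genes in 18 libraries. Reads were aligned with STAR to mm9 and limma was used, per the submitters' processing notes. Not given in the sources used here are the counter, annotation, filters, strand setting and versions. The deposited log2 values run from 1 to 18.73 and depart by at most 0.0512 at the same rank within the top 90% of ranks, so the libraries had been quantile normalized over all 18. Depth cannot be read from them, counting error is unknown, and a shift shared by most genes is invisible.

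Symbols (14994 of 15544), gene order, overlaps and transcript lengths came from GENCODE on GRCm38, a different build from the authors', so no gene coordinates are given. Promoter windows came from RefSeq on GRCm38.p6. Members' lengths come from the longest annotated transcript, known for 96.7% of tested genes.

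Genes with a mean below 6 (295) were left out. limma 3.58.1 in R 4.3.3 fitted 1 mean per genotype to all 18 libraries (14 residual degrees of freedom, 17 in total after empirical Bayes moderation with an intensity trend). The 6 contrasts were tested on both sides, with Benjamini-Hochberg adjustment over 15249 genes at 0.05. Exact 2-sided permutation tests of the difference of means were added for each of the 9 genes. The script was tested on simulated data. Permutation p-values of correlations used 100000 resamples within genotypes.

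Alternatives were no filter, only the 2 genotypes compared, library weights, no intensity trend, levels relative to 12 pan-epithelial markers, and each library left out. A lowess fit on log2 transcript length (span 0.3), removed from each library, was added after the data had been seen. The 9 genes and the lists were chosen with earlier results of these data known. Named genes are the 9, Foxa2 and Falcor, Epcam, the 3 genes most correlated with each of the 9, and, from each of 4 junction lists, the changed genes with the smallest p, up to 4 per comparison with wild type and 2 between mutants. The genes around Cldn3 and Cldn4, and the lowest marker of a list, were named after their values had been seen.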

Additional observations from a re-analysis of the deposited data

Results flagged for a closer look

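In the groups of 4 or 5 libraries, the distance of the highest or lowest library from its nearest neighbour was compared with the range of the group for each of the 9 genes, 36 tests in all. Chance alone gives about 1 in 20. Cldn23 in Foxa2+/- replicate 12 was the 1 value that stood apart: it was 9.79, against 9.16 to 9.17 in the other libraries of that genotype. The gap was 0.987 of the range of the group, above the critical value of Dixon's test for 4 libraries.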

How the results depend on the processing

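Depth is unknown, so no limit from counting can be given; a shared shift of all genes or a change in the mix of captured cells cannot be read from these levels. Of 54 differences (9 genes, 6 comparisons), 54 kept their direction and side of the threshold with no filter on low values, 54 with no intensity trend, 49 with only the 2 genotypes compared, 40 with library weights, 36 relative to pan-epithelial markers and 41 with the length trend removed (the last added after the data had been seen), as did 428 of 486 values with a library left out. The count of the 9 genes that changed ran from 1 to 5 with libraries left out in Falcor-/- against wild type, 0 to 1 in Foxa2+/-, 1 to 4 in the labelled double heterozygotes, 1 to 2 for Falcor-/- against Foxa2+/-, and stayed at 0 to 0 in the other 2. The counts of all genes ran from 354 to 3926, 556 to 1118, 1342 to 2435, 764 to 4742, 90 to 381 (labelled double heterozygotes against Foxa2+/-) and 412 to 1233 (against Falcor-/-), with fewer samples in each fit.

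In Falcor-/- against wild type, 1 of the 9 genes and 483 of all genes changed with those 2 genotypes alone, 3446 of all with weights, 2505 relative to pan-epithelial markers, and 2 and 909 with the length trend removed, beside 4 and 1444. In Foxa2+/- against wild type, 1 of the 9 changed with 2 genotypes alone, 2 (and 1947 of all) with weights, 3 (and 2211) relative to pan-epithelial markers and 1 with the length trend removed, beside 0 and 932. In the labelled double heterozygotes against wild type these were 5 and 4939 with weights and, of all genes, 3665 relative to pan-epithelial markers, beside 2 and 2254. For Falcor-/- against Foxa2+/-, 2 of the 9 changed relative to pan-epithelial markers, and 1181 and 4757 of all genes with 2 genotypes alone and with weights, beside 1 and 2540. For the labelled double heterozygotes against Foxa2+/-, 1 of the 9 changed with 2 genotypes alone and 3 with weights, and of all genes 2125 with weights, 239 relative to pan-epithelial markers and 564 with the length trend removed, beside 0 and 370. Against Falcor-/- 342 of all genes changed with 2 genotypes alone, beside 785. The cause was not tested.

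Scaling to pan-epithelial markers moved the median of all genes by -0.16, -0.19 and -0.24 in the comparisons with wild type, and the share of changed genes that were higher from 55.2%, 32.1% and 48.8% to 11.6%, 4.21% and 7.34%. Between mutants that share went from 51.4% to 76.8% (Falcor-/- against Foxa2+/-) and from 41.8% to 17.4% (labelled double heterozygotes against Falcor-/-).

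The following differences changed sign, all of them with no call in either setting. Relative to pan-epithelial markers: Ocln in Falcor-/- (-0.077), Cldn3 (-0.0063), Cldn7 (-0.048) and Cldn12 (-0.16) in Foxa2+/-, Cldn12 (-0.14), Ocln (-0.092) and F11r (-0.099) in the labelled double heterozygotes, Tjp1 (-0.012) against Foxa2+/-, and Cldn18 (-0.056) and Ocln (-0.016) against Falcor-/-. With weights: Tjp1 against Foxa2+/- (-0.10), and Cldn3 (0.11), Cldn7 (0.086), Cldn23 (0.013) and Tjp1 (-0.024) against Falcor-/-. With the length trend removed: Cldn3 (-0.10) and Tjp1 (0.090) for Falcor-/- against Foxa2+/-, Cldn3 (-0.051) against Foxa2+/-, and Cldn3 (0.050), Cldn7 (0.018), Cldn18 (-0.026) and Cldn23 (0.020) against Falcor-/-. With a library left out the ranges that crossed 0 were, against wild type, -0.0095 to 0.070 (Cldn12) and -0.12 to 0.010 (Ocln) in Foxa2+/- and -0.18 to 0.021 (Cldn18) in the labelled double heterozygotes. Against Foxa2+/- they were -0.011 to 0.14 (Cldn3) and -0.083 to 0.15 (Tjp1), and against Falcor-/- -0.081 to 0.066 (Cldn3), -0.12 to 0.054 (Cldn7), -0.084 to 0.12 (Cldn18) and -0.070 to 0.13 (Cldn23).

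No paired analysis was possible because the replicate numbers run from 1 to 18 and no 2 genotypes share one.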
